A study of Mus musculus with 4 samples.

Results

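The 30 genes described here act in DNA damage signalling and repair, and were taken as the rows of the deposited count table that carry their symbols. They are 30 of the 55401 genes in that table. Messenger RNA came from spleen P14 CD8+ T cells of mice, which carry a transgenic T cell receptor for an epitope of lymphocytic choriomeningitis virus (LCMV). In 2 libraries the cells carried a vector for overexpression of Hic1, which encodes a transcriptional repressor with zinc fingers. In the other 2 the control cells carried an empty vector. All mice had been infected with the Armstrong strain of LCMV, and the sample labels give day 32 after infection where the series text gives day 7. Strain background, age and the number of animals are not stated in the sources used here, and all the cells share 1 T cell receptor specificity. The comparison asks which transcripts differ when Hic1 is overexpressed in these cells.

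A DNA double-strand break is sensed by the complex of Mre11, Rad50 and Nbn, which activates the kinase Atm, whereas single-stranded DNA at stalled replication forks activates Atr. Atm marks the flanking histones, Mdc1 reads that mark and recruits the ubiquitin ligase Rnf8, and Rnf168 then extends the ubiquitin signal on histone H2A. Trp53bp1 reads the result and, with Rif1, favours non-homologous end joining, while Brca1 and its partners favour homologous recombination. Activated CD8+ T cells divide fast, and many repair genes are expressed most strongly in cells that copy their DNA. In bulk samples such as these, fewer cells of a kind and less RNA per cell cannot be told apart.

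Total counts were 7501285 and 8839317 in the Hic1 vector libraries, against 4017346 and 3941364 in the empty vector libraries, and the Hic1 vector libraries were thus the deeper ones. Hic1 itself had 314 and 161 counts in the Hic1 vector libraries, against 3 and 5 in the empty vector libraries. Xist counts (3590 and 3 in Hic1 vector replicates 1 and 2, against 1885 and 0 in empty vector replicates 1 and 2) show that replicates 1 and 2 differ in the sex of the cells, as do the counts of Y-linked Eif2s3y (0 and 951 with the Hic1 vector, against 0 and 396 with the empty vector), so differences within each replicate number are given beside the main genes. The 2 replicates of a group thus hold cells of different animals, although the labels do not state it, and the spread behind the p-values includes that difference. The 8 CD8+ T cell markers were all detected, with summed levels of 5827 and 6425 CPM (counts scaled to library size by TMM) in the Hic1 vector libraries, against 5374 and 5595 CPM in the empty vector libraries. The 8 B cell and plasma cell markers summed to 280.3 and 214.7 CPM in the Hic1 vector libraries, against 81.1 and 90.4 CPM in the empty vector libraries (3 of the 8 were tested). Most of this was Ighm, the constant region of IgM, which rose to 217.5 ± 28.9 CPM in the Hic1 vector libraries, against 72.9 ± 16.3 CPM in the empty vector libraries (SD, n = 2 each; adjusted p = 0.00706 by edgeR's quasi-likelihood test). The part of B cell RNA in the results below was not tested. Ms4a1 was at 0 in Hic1 vector replicate 1 and in empty vector replicate 1. Markers of NK cells summed to 58.7 and 70.9 CPM with the Hic1 vector, against 29.4 and 44.2 CPM with the empty vector, and those of myeloid cells to 49.3 and 56.6 CPM with the Hic1 vector, against 51.0 and 64.7 CPM with the empty vector. Lyz2, a myeloid marker, was at 0 in 3 of the 4 libraries.

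Rnf168 and Xpa were the repair genes that fell with the Hic1 vector, Rnf168 to 22.4% and Xpa to 41.9% of the empty vector level. All 30 genes passed the filter on low counts and were among the 11676 genes tested with the quasi-likelihood test of edgeR, whose p-values were adjusted across all 11676 by the method of Benjamini and Hochberg. Of the 30, 2 fell, 0 rose and 28 did not pass at an adjusted p of 0.05. By comparison, 1.82% of all genes tested passed, 1.10% falling and 0.719% rising. An unadjusted p under 0.05 was found in 9 of the 30, against 19.1% of all genes tested. Of these 9, 7 had estimates below 0 and 2 above. Of the 28 that did not pass, the lowest p-values belonged to Brca2, with an estimate below the empty vector level, and Trp53, with an estimate above it. Both Hic1 vector libraries lay below both empty vector libraries in 10 of the 30 genes, against 24.9% of all genes tested, and above them in 5, against 26.5%. The log2 fold change was below 0 in 21 of the 30 genes and in 49.1% of all genes tested. Its median was -0.28 over the 30 and 0.01 over all genes tested. Over 179 other genes of the repair pathways that were tested, the median was 0.004, and 49.7% of them were below 0. The 30 genes were chosen for their function with earlier results of these data known, Rnf168 among them, so these counts describe the list and do not test it.

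**Figure D1:**
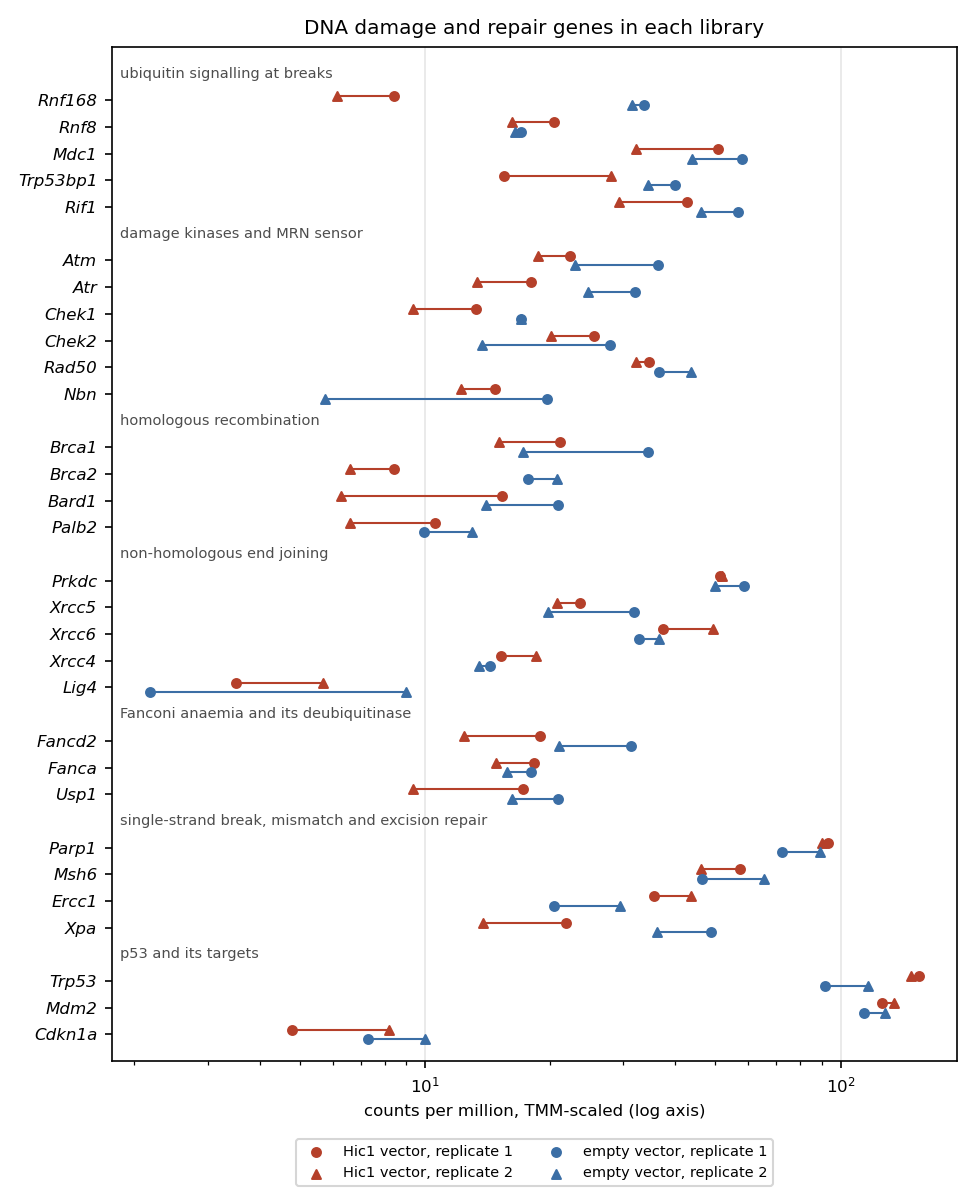
Levels of the 30 genes in each library in CPM (counts scaled to library size) on a log axis, grouped by role; each line joins the 2 libraries of a group. The Hic1 vector libraries of Rnf168 (6.15 and 8.45 CPM) lie far below its empty vector libraries (31.5 and 33.7 CPM), while the groups of genes such as Mdm2 and Prkdc overlap.

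Among the genes of ubiquitin signalling at breaks, Rnf168 fell and the other 4 did not pass. Rnf168 had 60 and 54 counts in Hic1 vector replicates 1 and 2, against 139 and 126 counts in empty vector replicates 1 and 2, although the Hic1 vector libraries were deeper. On the scaled level this was 8.45 and 6.15 CPM with the Hic1 vector, against 33.7 and 31.5 CPM with the empty vector. Every Hic1 vector library was thus well below every empty vector library, and the libraries of each group lay close together. The means were 7.3 ± 1.62 CPM with the Hic1 vector and 32.6 ± 1.6 CPM with the empty vector (SD, n = 2 each). Rnf168 fell by 2.12 on the log2 scale (SE 0.304), a 4.33-fold lower level with a 95% interval of 2.73-fold to 6.87-fold (adjusted p = 0.0109 by edgeR's quasi-likelihood test). The log2 difference was -1.96 within replicate number 1 and -2.29 within number 2. Among all 11676 genes tested, its p-value ranked 14th and its fall 26th. The fall passed the test in 16 of 17 other settings, with adjusted p-values of 4.54e-08 to 0.0666, and the exception was the fit without empty vector replicate 1 (log2 value -2.07; adjusted p = 0.0666 by edgeR's quasi-likelihood test). Rnf168 lies on chromosome 16 (positions 32277459 to 32301434, plus strand, mm10), and its annotated exons share no base with another gene.

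No tested gene around Rnf168 passed. Within 100000 bases of it, 3 of 9 annotated genes had enough counts to be tested. Ubxn7, which encodes a cofactor of the p97 ATPase, had 39.7 and 39.1 CPM with the Hic1 vector, against 54.6 and 51.0 CPM with the empty vector (log2 fold change -0.42 ± 0.199, SE). Wdr53 and Fbxo45, on the other side, had log2 fold changes of 0.53 ± 0.451 and 0.51 ± 0.421 (SE). The adjusted p-values of these 3 genes were 0.276, 0.556 and 0.535 by edgeR's quasi-likelihood test. This set of neighbours was looked up after the value of Rnf168 was known.

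Rnf8, the ligase that acts just before Rnf168, had 20.4 and 16.2 CPM in the Hic1 vector libraries, against 17.0 and 16.5 CPM in the empty vector libraries. The groups overlapped, and the 95% interval of its log2 fold change ran from -0.52 to 0.77. Rnf8 shares 1542 exon bases with Gm28043 on the same strand, so its counts are uncertain. Per kilobase of merged exons the mean Rnf168 level was 1.64 CPM with the Hic1 vector and 7.31 CPM with the empty vector, while that of Rnf8 was 1.56 CPM with the Hic1 vector and 1.43 CPM with the empty vector. Per kilobase of the longest transcript Rnf8 was at 3.39 CPM with the Hic1 vector and 3.10 CPM with the empty vector, so Rnf168 stood above Rnf8 in empty vector cells on either length, and in Hic1 vector cells the order depended on the length used. Mdc1, the reader that recruits Rnf8, was at 50.8 and 32.2 CPM with the Hic1 vector, against 57.8 and 44.0 CPM with the empty vector (log2 fold change -0.29 ± 0.255, SE). Trp53bp1, a reader of the Rnf168 mark, was at 15.5 and 28.0 CPM with the Hic1 vector, against 40.1 and 34.5 CPM with the empty vector. Its libraries did not overlap, but the log2 fold change of -0.76 ± 0.295 (SE) did not pass (adjusted p = 0.187 by edgeR's quasi-likelihood test), and it was -1.35 within replicate number 1 and -0.30 within number 2. Trp53bp1 shares 2130 exon bases with Tubgcp4 on the other strand, and the counting is not stated to use strand. Rif1, which acts with Trp53bp1 to limit end resection, was at 42.7 and 29.3 CPM with the Hic1 vector, against 56.8 and 46.2 CPM with the empty vector (log2 fold change -0.52 ± 0.239, SE; adjusted p = 0.261 by the same edgeR test). Of 28 other genes of this signal, 26 were tested and 0 passed by edgeR's quasi-likelihood test, 1 had an unadjusted p under 0.05, DESeq2 called 1 and limma voom 0. That gene was Usp48, a deubiquitinase of histone H2A, at 180.8 ± 18.3 CPM with the Hic1 vector and 277.8 ± 64.7 CPM with the empty vector (SD, n = 2 each; adjusted p = 0.0912 by edgeR's quasi-likelihood test and 0.0441 by DESeq2). The median log2 fold change of the 26 genes was 0.01, the same as over all genes tested. Ube2n, the conjugating enzyme that works with Rnf8, and Paxip1, an adaptor of Trp53bp1, had log2 fold changes of -0.41 ± 0.191 and -0.48 ± 0.225 (SE), and Babam1, a subunit of the Brca1-A complex, one of 0.35 ± 0.174 (SE).

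**Figure D2:**
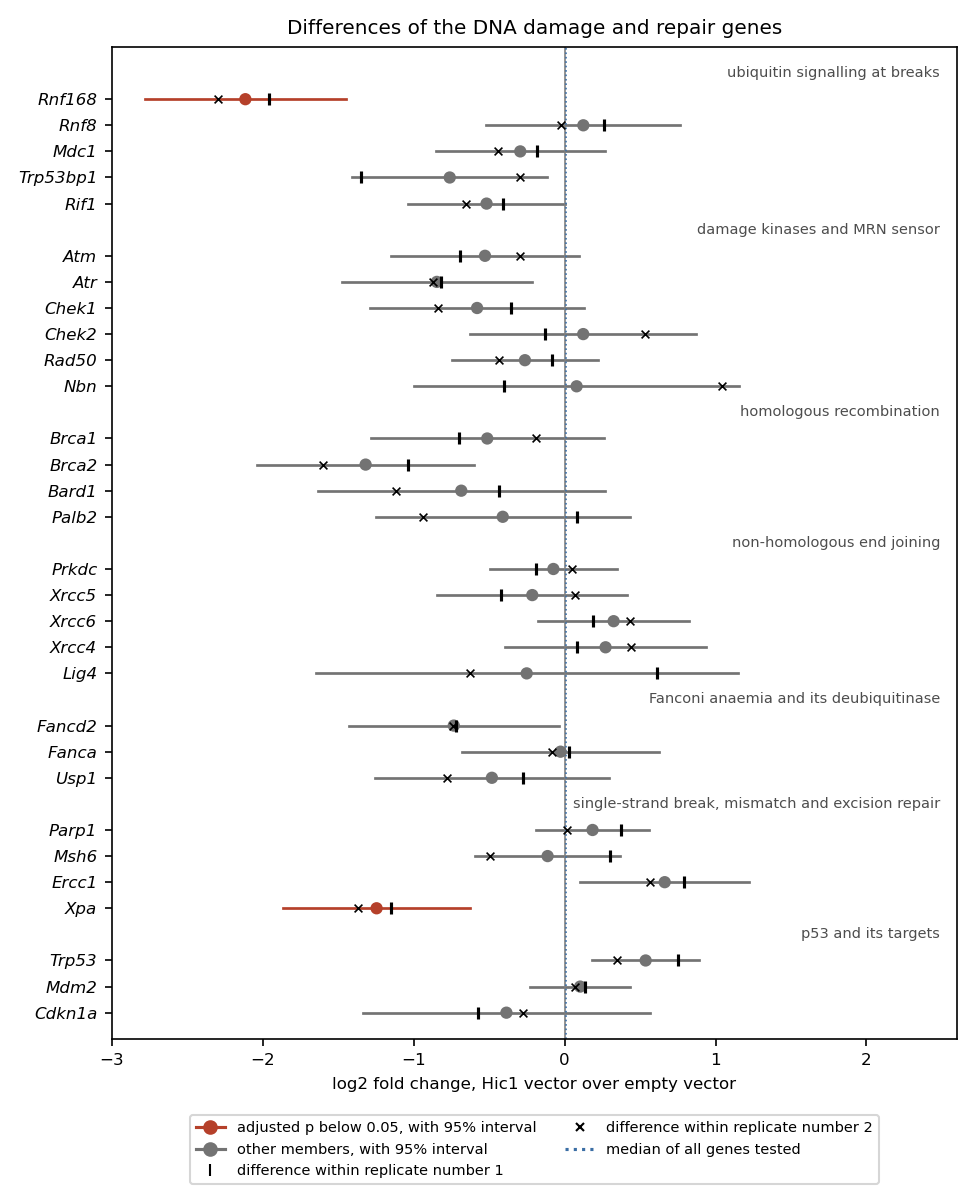
Log2 fold change of each gene, Hic1 vector over empty vector, with its 95% interval, and the difference within each replicate number; red marks an adjusted p below 0.05. Rnf168 (-2.12) and Xpa (-1.25) are marked, the homologous recombination genes all lie below 0 without passing, and most other intervals include 0.

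Because Hic1 is a repressor that binds DNA by sequence, the promoter windows of 4 genes are shown: the 2 that fell, Rnf168 and Xpa, and the next 2 by p-value, Brca2 and Trp53. Each runs from 250 bases before to 50 bases after the RefSeq start (GRCm38.p6, the mm10 build), is written 5′ to 3′ on the strand of the gene, and has the Hic1 core letters GGCA, or TGCC where they lie on the other strand, in capitals. The windows are chr16:32277211-32277510 on the plus strand for Rnf168, chr4:46196262-46196561 on the minus strand for Xpa, chr5:150522371-150522670 on the plus strand for Brca2 and chr11:69580109-69580408 on the plus strand for Trp53.
Rnf168: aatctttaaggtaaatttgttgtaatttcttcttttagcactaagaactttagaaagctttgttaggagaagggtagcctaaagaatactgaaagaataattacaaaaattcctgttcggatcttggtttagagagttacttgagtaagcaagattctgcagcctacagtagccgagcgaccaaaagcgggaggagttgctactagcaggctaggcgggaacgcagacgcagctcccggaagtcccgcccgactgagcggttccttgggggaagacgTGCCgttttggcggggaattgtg
Xpa: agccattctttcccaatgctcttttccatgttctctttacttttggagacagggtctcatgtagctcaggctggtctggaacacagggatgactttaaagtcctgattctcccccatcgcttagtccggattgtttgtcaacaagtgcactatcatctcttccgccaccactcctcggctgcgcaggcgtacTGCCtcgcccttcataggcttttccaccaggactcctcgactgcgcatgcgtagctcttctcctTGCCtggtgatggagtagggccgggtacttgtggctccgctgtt
Brca2: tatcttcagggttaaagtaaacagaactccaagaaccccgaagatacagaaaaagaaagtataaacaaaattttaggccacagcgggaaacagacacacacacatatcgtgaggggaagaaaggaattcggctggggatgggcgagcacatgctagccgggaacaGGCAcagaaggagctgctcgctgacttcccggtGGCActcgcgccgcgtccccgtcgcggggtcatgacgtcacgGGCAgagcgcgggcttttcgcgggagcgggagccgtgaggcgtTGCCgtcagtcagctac
Trp53: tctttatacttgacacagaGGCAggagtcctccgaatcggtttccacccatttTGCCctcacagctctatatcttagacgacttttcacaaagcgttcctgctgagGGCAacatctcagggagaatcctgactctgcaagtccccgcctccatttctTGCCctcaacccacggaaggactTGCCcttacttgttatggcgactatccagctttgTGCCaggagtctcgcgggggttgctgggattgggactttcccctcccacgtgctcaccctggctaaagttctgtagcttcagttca
The window of Rnf168 held 1 match to the core, that of Xpa 2, that of Brca2 4 and that of Trp53 6. The core is short and common: 23 of the 24 genes of the list with a promoter in the RefSeq table held it on either strand, as did 93.0% of all 27025 genes in that table. The longer letters GGGCANCC, which contain the core, were in the windows of Atm and Lig4, 2 of the 24 genes, and in 6.28% of all genes. The E2F letters TTTNNCGC, searched on both strands, were in 7 of the 24 (Bard1, Chek2, Brca2, Mdm2, Xrcc6, Mdc1 and Msh6) and in 5.93% of all genes. Windows of the list had a median GC content of 59.2%, against 52.7% for all windows, and the E2F letters hold a CG pair. A match to the p53 half-site was found in 4 of the 24 genes (Cdkn1a, Mdm2, Trp53 and Fanca) and in 9.55% of all genes. Rnf168 and Xpa held neither the longer Hic1 letters, the E2F letters nor the p53 half-site. These are matches of letters, and binding was not measured.

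None of the 6 damage kinase and sensor genes passed: edgeR's quasi-likelihood test, DESeq2 and limma voom each called 0, and 1 had an unadjusted p under 0.05. That gene was Atr, the kinase of stalled forks, with 18.02 and 13.3 CPM in Hic1 vector cells, against 32.0 and 24.7 CPM in empty vector cells. The groups of Atr did not overlap, with a log2 fold change of -0.85 ± 0.288 (SE; adjusted p = 0.138 by edgeR's quasi-likelihood test). Chek1, the checkpoint kinase that Atr activates, was at 13.2 and 9.34 CPM with the Hic1 vector, against 17.0 and 17.0 CPM with the empty vector (log2 fold change -0.58 ± 0.324, SE). Atm, the kinase of double-strand breaks, was at 22.4 and 18.7 CPM with the Hic1 vector, against 36.4 and 23.0 CPM with the empty vector (-0.53 ± 0.286). Atr, Chek1 and Atm thus had lower levels in every Hic1 vector library without passing the test. Chek2, the checkpoint kinase that Atm activates, overlapped between the groups, at 25.5 and 20.1 CPM with the Hic1 vector, against 27.9 and 13.7 CPM with the empty vector. Rad50, the structural subunit of the break sensor, had 34.6 and 32.2 CPM with the Hic1 vector, against 36.7 and 43.7 CPM with the empty vector (-0.26 ± 0.221), and was the fourth of the 6 whose Hic1 vector libraries were wholly lower, against 24.9% of all genes tested. Nbn, the subunit that recruits Atm, was at 14.8 and 12.2 CPM with the Hic1 vector, and its empty vector libraries stood far apart at 19.7 and 5.75 CPM. The 24 other kinase and checkpoint genes had a median log2 fold change of 0.08. By edgeR's quasi-likelihood test, DESeq2 or limma voom 0 of them passed. Against 19.1% of all genes tested, 3 of the 24 had an unadjusted p under 0.05. Besides Rpa3, a subunit of the single-strand binding protein (-0.48 ± 0.212), these were Mapkapk2 and Ppm1d. Mapkapk2, a kinase of the stress checkpoint, was at 19.3 ± 4.06 CPM with the Hic1 vector and 9.88 ± 2.64 CPM with the empty vector, and Ppm1d, a phosphatase that switches off the damage signal, was at 5.69 ± 0.314 CPM with the Hic1 vector and 13.3 ± 8.96 CPM with the empty vector (SD, n = 2 each).

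The 4 homologous recombination genes all had log2 fold changes below 0, with a median of -0.60, and 0 of them passed by edgeR's quasi-likelihood test, DESeq2 or limma voom, while 1 had an unadjusted p under 0.05. Brca2, which acts in strand exchange during recombination, had 8.45 and 6.61 CPM with the Hic1 vector, against 17.7 and 20.7 CPM with the empty vector. Both Hic1 vector libraries were below both empty vector libraries, at 39.2% of the empty vector mean. The log2 fold change was -1.32 ± 0.331 (SE), with a 95% interval from -2.04 to -0.60 (adjusted p = 0.061 by edgeR's quasi-likelihood test). The difference was -1.04 within replicate number 1 and -1.60 within number 2. Brca2 was called in 3 of 17 other settings, namely with library totals as the scaling, without a filter on low counts and with the replicate number in the fit. Brca1, the ligase that directs breaks to recombination, was at 21.1 and 15.0 CPM with the Hic1 vector, against 34.5 and 17.2 CPM with the empty vector, and the groups overlapped. Its log2 fold change was -0.51 with all libraries and 0.066 without empty vector replicate 1. Bard1, the partner of Brca1, was at 15.3 and 6.27 CPM with the Hic1 vector, against 20.9 and 13.99 CPM with the empty vector (log2 fold change -0.68 ± 0.430, SE). The value of Bard1 was -1.42 without Hic1 vector replicate 1 and -0.18 without Hic1 vector replicate 2. Palb2, which links Brca1 to Brca2, was at 10.6 and 6.61 CPM with the Hic1 vector, against 9.95 and 13.0 CPM with the empty vector, an overlap between the groups.

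Other recombination genes had a median of -0.24 over 31 genes, the lowest of the 9 lists of other repair genes. Both Hic1 vector libraries lay below both empty vector libraries in 15 of the 31 (48.4%) and above them in 3, against 24.9% and 26.5% of all genes tested. By edgeR's quasi-likelihood test, DESeq2 and limma voom 0 of the 31 passed, and 8 had an unadjusted p under 0.05, 7 of them with an estimate below 0, against 19.1% of all genes tested in either direction. Blm, the helicase that dissolves recombination intermediates, was at 16.5 ± 5.31 CPM with the Hic1 vector and 32.0 ± 4.92 CPM with the empty vector (SD, n = 2 each; adjusted p = 0.111 by edgeR's quasi-likelihood test). Rbbp8, which starts end resection, had a log2 fold change of -0.51 ± 0.186 (SE). Mus81, a nuclease that cuts joint molecules, had a value of the opposite sign, 0.68 ± 0.238 (SE). The 30 proliferation and replication genes had a median log2 fold change of -0.14, and their levels summed to 5523 and 3723 CPM in the Hic1 vector libraries, against 5984 and 4866 CPM in the empty vector libraries. Of those 30, 7 (23.3%) lay lower in both Hic1 vector libraries than in both empty vector libraries, against 24.9% of all genes tested. None of the rest lay higher, 0 against 26.5% of all genes tested, and 23 overlapped. The median difference of the 30 proliferation genes was -0.002 within replicate number 1 and -0.33 within number 2. It was -0.57 and -1.03 for the 4 recombination genes, and -0.12 and -0.25 for the 31 other recombination genes. The part of cell division in the recombination genes was not tested. Estimates lay below 0 in 49.1% of all genes tested and in 22 of the 30 proliferation genes. Among them Top2a, the topoisomerase of dividing cells, was at 331.7 ± 138.8 CPM with the Hic1 vector and 644.4 ± 242.1 CPM with the empty vector, Kif11, a spindle motor, at 81.7 ± 32.1 CPM with the Hic1 vector and 140.9 ± 38.9 CPM with the empty vector, and Tyms and Rrm2, which supply nucleotides, had log2 fold changes of -0.49 ± 0.181 and -0.45 ± 0.168 (SE). No proliferation gene passed by edgeR's quasi-likelihood test, DESeq2 or limma voom, and 3 had an unadjusted p under 0.05. With the replicate number, which goes with sex, as a term in the edgeR fit, 3 of the 30 fell, namely Top2a, Kif11 and Rrm2 (adjusted p = 0.00135, 0.0105 and 0.0398). That fit called 794 of all 11676 genes tested, 416 lower and 378 higher, against 213 in the main fit.

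**Figure D3:**
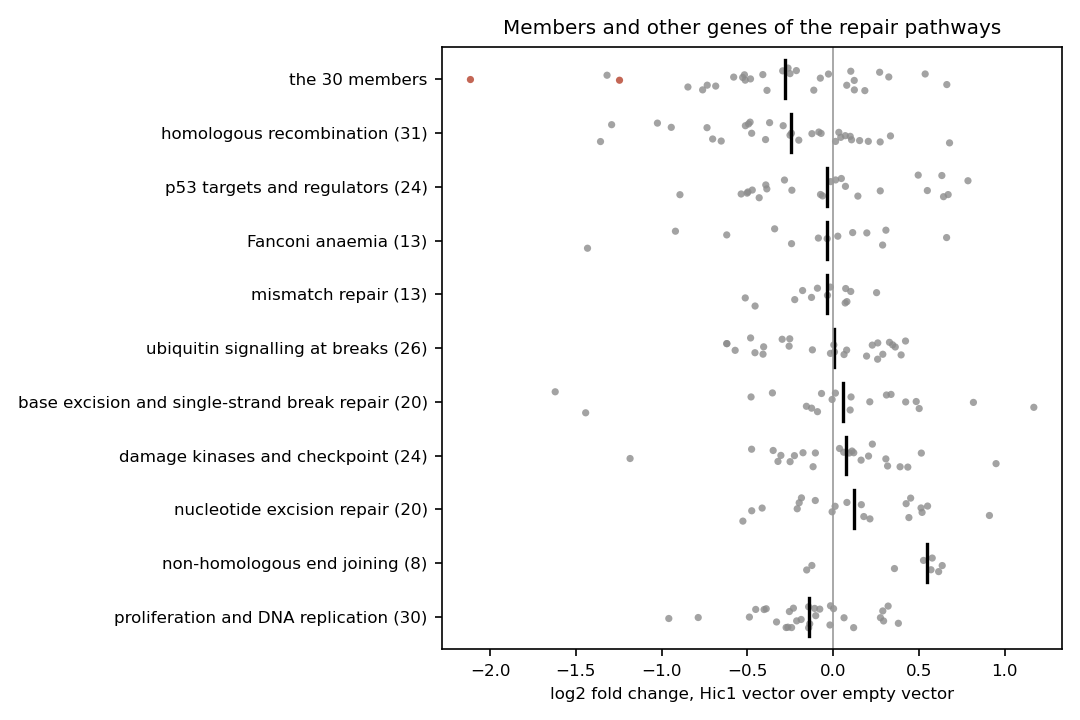
Log2 fold change, Hic1 vector over empty vector, of the 30 genes and of the tested genes of 9 other repair lists and a proliferation list (number of genes in brackets); each point is a gene and black bars are medians. The other recombination genes have a median of -0.24 and the other end joining genes one of 0.55, and no gene outside the 30 is marked red.

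Non-homologous end joining genes showed no shared direction. Of the 5, 0 passed by edgeR's quasi-likelihood test, DESeq2 or limma voom, 0 had an unadjusted p under 0.05, and the median log2 fold change was -0.07. Prkdc, the DNA-dependent protein kinase that V(D)J recombination needs, had 51.2 and 51.7 CPM with the Hic1 vector, against 58.5 and 50.0 CPM with the empty vector, with a 95% interval of the log2 fold change from -0.50 to 0.35. Xrcc5 and Xrcc6 encode the Ku subunits that hold DNA ends. Xrcc5 was at 23.7 and 20.7 CPM with the Hic1 vector, against 31.8 and 19.7 CPM with the empty vector. Xrcc6 was at 37.3 and 49.5 CPM with the Hic1 vector, against 32.8 and 36.5 CPM with the empty vector (log2 fold change 0.32 ± 0.229, SE). The groups of Xrcc5 overlapped and those of Xrcc6 did not. Xrcc6 shares 344 exon bases on the other strand with Desi1, which fell by 1.71 on the log2 scale (adjusted p = 0.0131 by edgeR's quasi-likelihood test). Xrcc4, the scaffold of the ligation step, was at 15.2 and 18.5 CPM with the Hic1 vector, against 14.3 and 13.5 CPM with the empty vector (0.27 ± 0.304), and shares 112 exon bases with Tmem167 on the other strand. Its ligase Lig4 was the least counted gene of the list, with 25 and 50 counts with the Hic1 vector against 9 and 36 with the empty vector, and a 95% interval from -1.65 to 1.15. Of 9 other end joining genes, 8 were tested, with a median log2 fold change of 0.55. By edgeR's quasi-likelihood test, DESeq2 and limma voom 0 of the 8 passed, and 3 had an unadjusted p under 0.05, all with estimates above 0. The Hic1 vector libraries were wholly higher in 4 of the 8 and wholly lower in 0, against 26.5% and 24.9% of all genes tested, of which 19.1% had an unadjusted p under 0.05. Paxx, which stabilises Ku at ends, and Poll, a polymerase that fills gaps, had log2 fold changes of 0.57 ± 0.238 and 0.64 ± 0.273 (SE), and Dclre1c, the Artemis nuclease, one of 0.36 ± 0.259 (SE).

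Of the 3 Fanconi anaemia genes, whose products clear crosslinks between the DNA strands, 0 passed by edgeR's quasi-likelihood test, DESeq2 or limma voom, and 1 had an unadjusted p under 0.05. Fancd2, the protein that is ubiquitinated at crosslinks, had 18.9 and 12.4 CPM with the Hic1 vector, against 31.3 and 20.99 CPM with the empty vector. Its groups did not overlap, and its differences within the replicate numbers were close to each other, -0.72 within number 1 and -0.74 within number 2 (log2 fold change -0.73 ± 0.319, SE; adjusted p = 0.229 by edgeR's quasi-likelihood test). Usp1, which removes ubiquitin from Fancd2, was at 17.2 and 9.34 CPM with the Hic1 vector, against 20.9 and 16.2 CPM with the empty vector, an overlap between the groups. Fanca, a subunit of the core ligase, was at 18.3 and 14.8 CPM with the Hic1 vector, against 17.96 and 15.7 CPM with the empty vector (log2 fold change -0.03 ± 0.299, SE). Fanca shares 920 exon bases with Zfp276 on the other strand. Of 14 other Fanconi genes 13 were tested, and 0 passed by edgeR's quasi-likelihood test, DESeq2 or limma voom. Against 19.1% of all genes tested, 2 of the 13 had an unadjusted p under 0.05. Those were Fance, which bridges the core complex and Fancd2, at 4.82 ± 1.24 CPM with the Hic1 vector and 13.6 ± 3.03 CPM with the empty vector (SD, n = 2 each; adjusted p = 0.0783 by edgeR's quasi-likelihood test), and Fancm, a fork translocase, with a log2 fold change of -0.92 ± 0.343 (SE). Fancg and Faap100 had log2 fold changes of 0.29 ± 0.217 and 0.66 ± 0.419 (SE).

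Among the genes of excision, single-strand break and mismatch repair, Xpa fell and Parp1, Msh6 and Ercc1 did not pass. Xpa encodes the scaffold that checks the damaged strand in nucleotide excision repair. It had 155 and 121 counts in the Hic1 vector libraries, against 201 and 145 counts in the empty vector libraries. The scaled levels were 21.8 and 13.8 CPM with the Hic1 vector, against 48.8 and 36.2 CPM with the empty vector, and the groups did not overlap. Xpa fell by 1.25 on the log2 scale (SE 0.284), a 2.37-fold lower level with a 95% interval of 1.54-fold to 3.65-fold (adjusted p = 0.0485 by edgeR's quasi-likelihood test). The difference was -1.15 within replicate number 1 and -1.37 within number 2. This adjusted p lay close to the threshold, and Xpa passed in 9 of 17 other settings, with adjusted p-values between 0.000828 and 0.358 and log2 values between -1.59 and -0.94. Xpa lies on chromosome 4 (positions 46155347 to 46196311, minus strand, mm10), where 77 of its exon bases overlap Ncbp1 on the other strand. Ncbp1, a subunit of the cap-binding complex, was at 126.4 and 131.3 CPM with the Hic1 vector, against 114.1 and 130.7 CPM with the empty vector, and Tstd2, the other tested gene within 100000 bases of Xpa, had a log2 fold change of 0.03 ± 0.237 (SE).

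Ercc1, the partner of the nuclease that cuts beside the lesion Xpa marks, had values on the opposite side of the empty vector level. Ercc1 had 35.5 and 43.8 CPM with the Hic1 vector, against 20.4 and 29.5 CPM with the empty vector. The groups did not overlap, and the log2 fold change of 0.66 ± 0.257 (SE) did not pass (adjusted p = 0.184 by edgeR's quasi-likelihood test). Ercc1 shares 106 exon bases with Cd3eap on the other strand. Parp1, which senses single-strand breaks, was at 93.3 and 90.4 CPM with the Hic1 vector, against 72.1 and 89.4 CPM with the empty vector (0.18 ± 0.170). Msh6, which recognises mismatches, was at 57.2 and 46.3 CPM with the Hic1 vector, against 46.4 and 65.5 CPM with the empty vector, and the groups overlapped. Of 20 other nucleotide excision genes, 0 passed by edgeR's quasi-likelihood test, DESeq2 or limma voom, and the median log2 fold change was 0.12. An unadjusted p under 0.05 was found in 2 of the 20, against 19.1% of all genes tested. Xpc, the sensor of helix distortion, was at 29.6 ± 10.7 CPM with the Hic1 vector and 15.5 ± 2.06 CPM with the empty vector (SD, n = 2 each; adjusted p = 0.141 by edgeR's quasi-likelihood test). Gtf2h3, a subunit of the TFIIH helicase complex, had a log2 fold change of 0.55 ± 0.227, Ercc4, the nuclease partner of Ercc1, one of 0.43 ± 0.234 and Ercc3, a TFIIH helicase, one of 0.44 ± 0.243 (SE). These 4 are the lowest in p-value among the 20. Estimates lay below 0 in 8 of the 20, against 49.1% of all genes tested. The Hic1 vector libraries were wholly lower in 5 and wholly higher in 7, against 24.9% and 26.5% of all genes tested.

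Of 21 other base excision and single-strand break genes, 20 were tested and 0 passed by edgeR's quasi-likelihood test or limma voom. An unadjusted p under 0.05 was found in 4 of the 20, against 19.1% of all genes tested. The Hic1 vector libraries were wholly higher in 7 and wholly lower in 3, against 26.5% and 24.9% of all genes tested. DESeq2 called 422 genes in all, 2 of the 20 among them. The 2 were Parg and Tdp2. Parg, the glycohydrolase that removes the chains Parp1 makes, was at 16.6 ± 7.55 CPM with the Hic1 vector and 51.5 ± 23.3 CPM with the empty vector (SD, n = 2 each; adjusted p = 0.0759 by edgeR's quasi-likelihood test and 0.00346 by DESeq2). Tdp2, which frees DNA ends from trapped topoisomerase, was at 7.71 ± 2.84 CPM with the Hic1 vector and 21.4 ± 2.35 CPM with the empty vector (adjusted p = 0.0571 by edgeR's quasi-likelihood test and 0.0382 by DESeq2). Parg was called in 8 and Tdp2 in 6 of 17 other settings. Neil1, a glycosylase of oxidised bases, and Parp3, a relative of Parp1 that acts at double-strand breaks, had log2 fold changes of 0.82 ± 0.302 and 0.48 ± 0.207 (SE). Of 13 other mismatch repair genes, which include the clamp loader subunits, 0 passed by edgeR's quasi-likelihood test, DESeq2 or limma voom, 1 had an unadjusted p under 0.05, and the median was -0.03. Rfc4, Rfc3 and Rfc2 of the clamp loader had log2 fold changes of -0.51 ± 0.237, -0.46 ± 0.235 and 0.25 ± 0.150 (SE), and Rfc1 one of -0.18 ± 0.177.

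Of p53 and its targets, 0 of the 3 passed by edgeR's quasi-likelihood test, DESeq2 or limma voom, and 1 had an unadjusted p under 0.05. Trp53, which encodes p53, had 154.0 and 147.6 CPM with the Hic1 vector, against 91.5 and 116.2 CPM with the empty vector. Both Hic1 vector libraries were above both empty vector libraries, with a log2 fold change of 0.54 ± 0.163 (SE), and a 95% interval from 0.18 to 0.89 (adjusted p = 0.107 by edgeR's quasi-likelihood test). The difference was 0.75 within replicate number 1 and 0.34 within number 2, and the test without a filter on low counts was the only 1 of 17 other settings to call it. In human cells p53 is known to activate transcription of HIC1. Mdm2, the ligase that degrades p53 and a p53 target, was at 125.6 and 134.6 CPM with the Hic1 vector, against 114.1 and 128.2 CPM with the empty vector. Its groups overlapped, and the 95% interval of its log2 fold change ran from -0.23 to 0.43. Cdkn1a, the cell cycle inhibitor that p53 induces, was at 4.79 and 8.20 CPM with the Hic1 vector, against 7.28 and 9.99 CPM with the empty vector, an overlap between the groups (95% interval from -1.34 to 0.57). Neither target thus had an interval that excluded 0. Of 30 other p53 targets and regulators 24 were tested, and 0 passed by edgeR's quasi-likelihood test, DESeq2 or limma voom. Against 19.1% of all genes tested, 6 of the 24 had an unadjusted p under 0.05, 3 with estimates above 0 and 3 below. Bax, a promoter of apoptosis, was at 85.6 ± 4.43 CPM with the Hic1 vector and 60.6 ± 6.46 CPM with the empty vector (SD, n = 2 each), and Sesn1, a sestrin, had a log2 fold change of 0.55 ± 0.230 (SE). Mdm4, the Mdm2 relative that restrains p53, was at 142.7 ± 13.9 CPM with the Hic1 vector and 202.1 ± 5.69 CPM with the empty vector (adjusted p = 0.101 by edgeR's quasi-likelihood test), and Apaf1, the core of the apoptosome, had a log2 fold change of -0.50 ± 0.209 (SE).

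Across the list, levels per kilobase of merged exons were highest for Trp53, Mdm2 and Parp1 in Hic1 vector cells, at 37.3, 25.6 and 17.4 CPM, and for Trp53, Mdm2 and Xpa in empty vector cells, at 25.7, 23.8 and 22.4 CPM. The lowest in Hic1 vector cells were Brca2 at 0.552 CPM and Atr at 0.663 CPM, and in empty vector cells Lig4 at 1.07 CPM and Atr at 1.20 CPM. The merged exons of Atr are longer than its longest transcript, and per kilobase of the longest transcript Atr was at 1.93 CPM with the Hic1 vector and 3.50 CPM with the empty vector. On that length Xpa was at 14.3 CPM with the Hic1 vector and 34.3 CPM with the empty vector, and Rnf168 at 1.64 CPM with the Hic1 vector and 7.31 CPM with the empty vector. The orders changed on that length. With the Hic1 vector, Ercc1 (28.8 CPM) stood above Parp1 (23.7 CPM). With the empty vector, Mdm2 (38.5 CPM) and Xpa stood above Trp53 (31.7 CPM). The lowest were Brca2 (0.702 CPM) and Lig4 (0.917 CPM) with the Hic1 vector, and Lig4 (1.11 CPM) and Brca2 (1.79 CPM) with the empty vector.

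Genes with lower GC content tended to have lower estimates, both in the list and among all genes. Across the 30 genes, which are not independent replicates, Spearman's rho between log2 fold change and transcript GC content was 0.45, against 0.48 across 178 other repair genes with a GC value and 0.30 across all 11667 genes with one. The 15 genes of lower GC content had a median log2 fold change of -0.51, and the 15 of higher GC content one of -0.03. Over all genes tested, split at their median GC content in the same way, the medians were -0.11 for lower and 0.15 for higher GC content. With merged exon length rho was -0.36 across the 30 genes and -0.10 across all genes tested. Among genes of low GC content were Rif1 (39.3%), Atr (40.8%), Chek1 (41.0%), Brca2 (42.4%) and Rnf168 (44.3%), with estimates below 0, and Xrcc4 (42.1%), with one above 0, whereas Xpa (50.0%) was above the median of 49.0% for all genes tested and Ercc1 (57.6%) was the richest of the list. With the trend on GC content taken out of every library, Rnf168 had a log2 fold change of -1.97 and was still called (adjusted p = 0.0125 by edgeR's quasi-likelihood test). Xpa had one of -1.23 and was not called (adjusted p = 0.0562 by the same test). In that fit 20 of the 30 genes had a value below 0, and the median was -0.25 over the 30 and 0.04 over all genes tested. The values of Brca2 and Atr became -1.15 and -0.66 then, and those of Trp53 and Ercc1 0.42 and 0.47.

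**Figure D4:**
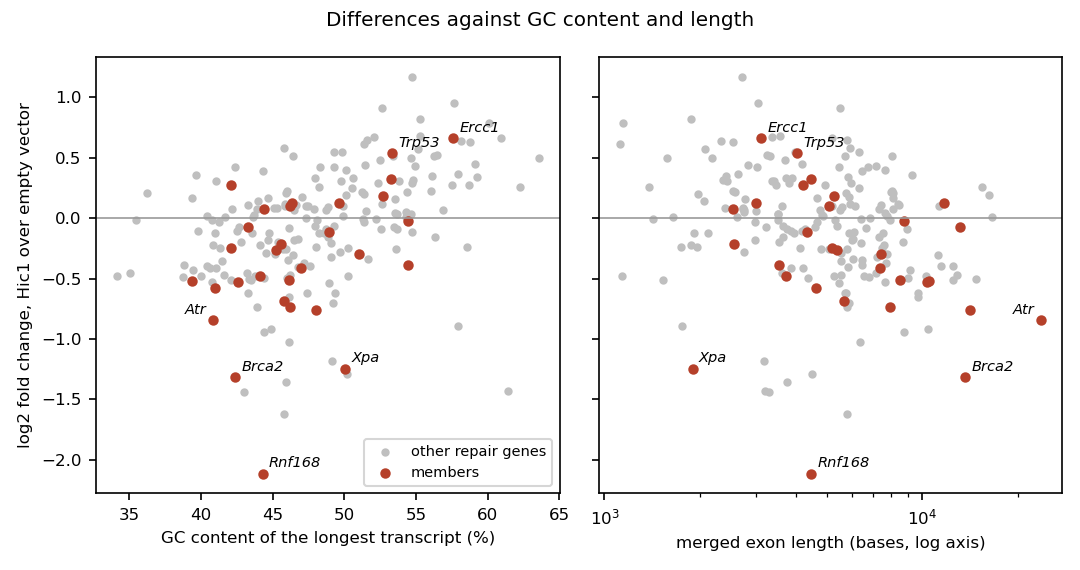
Log2 fold change, Hic1 vector over empty vector, against transcript GC content (left, in percent) and merged exon length (right, in bases on a log axis) for the 30 genes (red) and the other repair genes (grey). Estimates tend to be lower at lower GC content (rho 0.45 over the 30 genes), and Rnf168 lies below the other genes of similar GC content and length.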

How the data were processed

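Per the labels' protocols, a second sort took 1000 out of 5000 sorted cells into lysis buffer, and Smart-seq2 libraries of polyadenylated RNA were built from 5 µl of the lysate, with 12 PCR cycles at the last amplification. The submitters' processing notes list mm10, featureCounts 1.5.3, STAR 2.5.2b, DESeq2 1.3.2 and Trimmomatic 0.38 without their roles, and neither the annotation release nor the strand setting is given in the sources used here. The authors deposited raw read counts per gene, which were used as deposited, and their normalized table was not used. Total counts ran from 3941364 to 8839317 per library.

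Genes were kept by filterByExpr (minimum count 10), scaled by TMM and tested with edgeR 4.0.16 by the quasi-likelihood F test (robust, group only, prior count 2 for log2 values), with Benjamini-Hochberg adjustment over all 11676 genes and a threshold of 0.05. Intervals are 95% intervals of that fit. The 17 other settings, of which 1 (without X and Y genes) was added after the data were seen, included DESeq2 1.42.0 and limma 3.58.1 in R 4.3.3. The count of called proliferation genes was also added then. Coordinates, exon lengths and GC content come from GENCODE M21, where the identifier version of 29 of the 30 genes matched, and promoters from RefSeq. On counts simulated at these depths, the test recovered 27 of 97 genes changed 2-fold and 96 of 98 changed 4-fold. It called 1 of 11103 left as they were. The simulation gave every gene the same biological coefficient of variation (0.195) and no difference between replicates such as sex. These counts are thus not error rates for the data themselves. The 30 genes, the other lists and the naming rule (the 30, and up to 4 genes of lowest p in each other list) were chosen with earlier results of these data known. A few genes that the rule or a marker list would name are not reported here. Desi1 and the genes near Rnf168 and Xpa were named after their values were seen. GC and length trends were removed with a loess fit (span 0.3) in each library.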

Additional observations from a re-analysis of the deposited data

How the results depend on the processing

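The fall of Rnf168 kept its direction in all 17 other settings (log2 values -2.33 to -1.90). Leaving out 1 library at a time, which leaves an arm whose lone sample is assumed to vary like the other group, gave 0 to 2 called genes of the 30 by edgeR's quasi-likelihood test. The 0 came without empty vector replicate 1, where 8 genes of all passed, against 213 with all libraries and at most 318 over the omissions. The cause was not tested. Xpa passed without Hic1 vector replicate 1 and without empty vector replicate 2 and not otherwise when a library was left out (log2 values -1.59 to -0.94). Counts of called genes among all genes, the 30, the 190 other repair genes and the 30 proliferation genes were 321, 3, 2 and 0 with library totals as the scaling, where 21.8% of calls were higher against 39.4% with TMM. They were 819, 4, 7 and 1 without a filter on low counts, 422, 2, 3 and 0 with DESeq2, 121, 1, 0 and 0 with limma voom, 140, 1, 0 and 0 without the robust option, and 140, 1, 1 and 0 after thinning to equal depth. They were 162, 1, 0 and 0 with DESeq2 size factors, 117, 1, 0 and 0 after GC correction and 121, 1, 0 and 0 after length correction. Other repair genes called ran from 0 to 4 and proliferation genes from 0 to 2 over the omissions of 1 library. The median log2 fold change of the 30 genes was -0.36 with library totals, -0.22 without the filter, -0.34 after thinning and -0.40 to -0.11 over the omissions.

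With the replicate block the counts were 794, 3 (Brca2 added), 5 and 3 (Top2a, Kif11 and Rrm2, all lower), and with GC correction and the replicate block 460, 2, 3 and 2. The replicate number goes with the sex of the cells, the labels do not say what else it shares, and deviations from the group means correlated at 0.24 between libraries with the same number.

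Of 509 values of single genes in other settings, 23 had the opposite sign, in 10 genes that did not pass. Leaving out 1 library at a time gave log2 fold changes of -0.042 to 0.29 for Rnf8, -0.65 to 0.0036 for Mdc1, -0.31 to 0.72 for Chek2, -0.55 to 1.19 for Nbn, -0.94 to 0.066 for Brca1, -0.20 to 0.045 for Prkdc, -0.53 to 0.17 for Xrcc5, -0.91 to 0.98 for Lig4, -0.18 to 0.12 for Fanca and -0.34 to 0.14 for Msh6. Lig4 was at 0.028 with limma voom, Chek2 at -0.036 after thinning, Fanca at 0.035 without the filter, and Prkdc and Fanca at 0.12 and 0.073 after length correction. Prkdc was at 0.090 after GC correction and 0.092 with GC correction and the replicate block, where Lig4 was at 0.061. The causes were not tested.

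Among the genes that did not pass, several 95% intervals allow changes of more than 2-fold in one direction or the other. They include those of Lig4 and Cdkn1a, which had few counts, and those of Nbn and Bard1. The cause of their width was not tested. A p-value that misses the threshold does not show that a gene was unchanged.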
